A study of Oryzias latipes with 50 samples.

Results

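Genes for the subunits, assembly factors and regulators of the proteasome were followed over the seasons in the brain of medaka, Oryzias latipes. A gene was counted as a member when its symbol began with psma, psmb, psmc, psmd, psme, psmf or psmg, or when its description named a proteasome subunit. Its FPKM, the reads of a gene scaled for the length of its transcript and the size of the library, also had to average at least 1. Of 23455 genes in the table, 53 matched by name and 49 passed this level.

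The fish were kept outdoors in Okazaki, Japan, and the part of the brain with the hypothalamus, the pituitary and the ventral telencephalon was sampled at around 8 pm. There were 25 dates, about 1 a month from September 2015 to September 2017, and 2 RNA-seq libraries per date, 50 in all. The study asked how expression changes through the year. Summer here means June to August (6 dates) and winter December to February (6 dates). Days were falling in August to October (7 dates) and rising in February to April (6 dates), and the second year (October 2016 to September 2017) was set against the first (October 2015 to September 2016). No treatment other than the natural season is named, and the labels give neither strain, sex and age nor the number of fish in a library, so p-values measure only the spread between dates.

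The proteasome degrades proteins that carry ubiquitin chains. Its barrel-shaped core particle is built from alpha subunits, which form the outer rings and the gate, and beta subunits, some of which cut the substrate inside. A regulatory particle with a ring of ATPases unfolds substrates and feeds them in, and dedicated chaperones assemble both parts. In jawed vertebrates, interferon and lymphoid cells switch the catalytic beta subunits to immunoproteasome forms, which change the peptides made for antigen presentation by MHC class I. In mammals PSMB8 takes the place of PSMB5, PSMB9 that of PSMB6 and PSMB10 that of PSMB7.

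FPKM summed to between 278558 and 341666 per library. The median correlation across genes, which are not independent replicates, was 0.9816 between libraries of 1 date and 0.9499 between dates. Libraries before and after July 2016 stood apart in gnrh2, a gene of midbrain neurons. It lay between 0 and 0.82 FPKM in the 30 libraries from July 2016 and between 13.7 and 29.4 FPKM in the 20 libraries to June 2016. Results were therefore also computed for dates from July 2016 only. February 2016 stood apart among the members, since 24 of the 49 had their highest date there, against 6.23% of all genes tested. It exceeded the mean of the other winter dates by a median of 0.28 on the log2 scale over the members and by 0.08 over all genes tested. Pituitary hormone genes such as lhb and prl1 and hypothalamic genes such as oxt were detected, as the label of the tissue requires. In such a bulk sample, fewer cells of a type and less RNA per cell cannot be told apart.

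Most proteasome genes were abundant, with 34 of the 49 at a mean of at least 20 FPKM and 6 below 5 FPKM. The 32 genes of the core and regulatory particles with a mean of at least 5 FPKM, leaving out the immunoproteasome, summed to 1101 ± 59.8 FPKM in summer and 1378 ± 146 FPKM in winter (SD, n = 6 dates each). The highest summer date reached 1161 FPKM and the lowest winter date 1240 FPKM, so the seasons did not overlap in this sum. Changes per gene were tested with limma on log2(FPKM + 1) of date means, with Benjamini-Hochberg adjustment over 16493 genes and a threshold of 0.05.

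Between summer and winter, 31 of the 49 members changed (63.3%), against 54.5% of all genes tested. Of these 25 fell in summer (51.0%), against 23.5% of all genes. A further 6 rose (12.2%), against 31.0% of all genes, and 18 did not pass the test. The median difference of summer minus winter was -0.27 on the log2 scale over the members and 0.06 over all genes tested. In 17 members every summer date lay below every winter date, a pattern found in 14.1% of all genes, and in 2 members, psme3 and psme4, every summer date lay above, a pattern found in 16.9%. Of the 49 members 42 had the same sign in both years, against 78.1% of all genes. All 31 members that passed did so, which a test that pools both years favours. Among them LOC101158678 differed by only 0.001 in the first year. From July 2016 only, 13 members fell and 10 rose. The 12 calls lost in that fit were those of psma2, psma3, psmb1, psmb2, psmb3, psmc2, psmc3, psmd3, psmd6, LOC101157953, psmg1 and psmg3, and the 4 gained were rises of psmc5, psmd12, psme2 and psmb9-like. With February 2016 left out, 21 fell and 9 rose. The shares of all genes called in these fits are not given here. The counts therefore cannot show whether members differed from other genes in them.

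**Figure D1:**
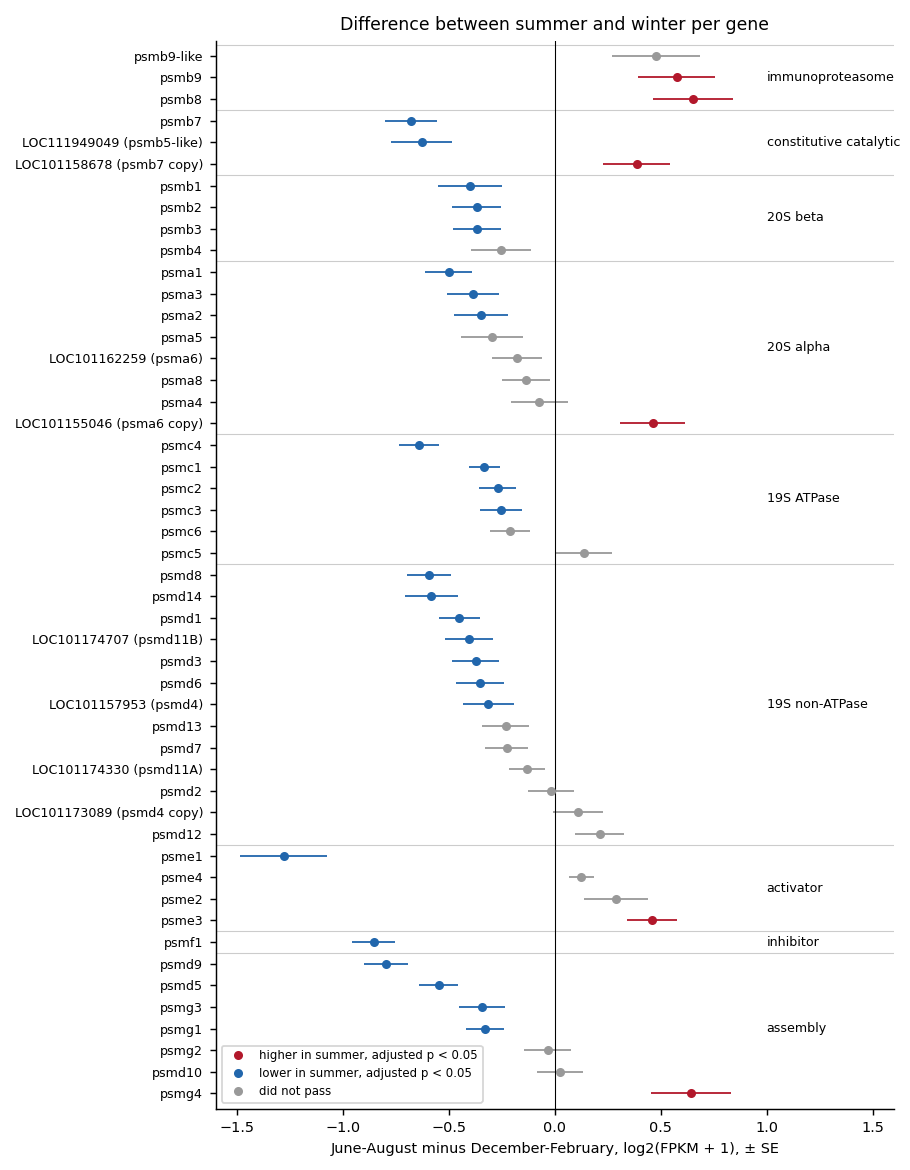
Summer minus winter difference of log2(FPKM + 1) per gene (points, with the SE as bars), grouped by role and sorted within each role. Red points rose, blue points fell and grey points did not pass; 25 genes fell, 6 rose, and psme1 lay farthest to the left at -1.28.

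Of the 3 genes annotated as catalytic subunits of the standard core, the abundant psmb7 and LOC111949049 fell in summer and the scarce copy LOC101158678 rose. psmb7, the gene for the trypsin-like subunit, had a lowest, median and highest date of 45.9, 50.3 and 57.0 FPKM in summer, against 76.2, 78.3 and 95.4 FPKM in winter. All of its summer dates lay below all of its winter dates. The difference was -0.68 ± 0.12 (SE), with a limma adjusted p = 6.34e-05. LOC111949049, annotated as psmb5-like and thus as the chymotrypsin-like subunit, had 29.9, 34.6 and 39.2 FPKM in summer, against 43.6, 55.2 and 67.8 FPKM in winter, again without overlap. Its difference was -0.63 ± 0.14 (limma adjusted p = 0.000778). No gene with the symbol psmb6 was analysed here, nor one with psmb10.

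Of the 3 immunoproteasome genes, all scarce, psmb8 and psmb9 were higher in summer than in winter and psmb9-like did not pass. Summer was not their highest season. psmb8 averaged 2.88 FPKM in spring (March to May), 2.60 in summer, 2.35 in autumn (September to November) and 1.33 in winter. psmb9 averaged 1.73, 1.405, 1.98 and 0.62 FPKM in the same order, and psmb9-like 1.82, 1.57, 1.96 and 0.86 FPKM. Spring and autumn were not tested against summer or winter. psmb8 had a lowest, median and highest date of 1.75, 2.46 and 4.28 FPKM in summer, against 0.66, 1.04 and 2.74 FPKM in winter. The groups overlapped through February 2016, which held the winter maximum. psmb8 rose by 0.65 ± 0.19 (limma adjusted p = 0.0053), and the rise was 0.75 in the second year and 0.55 in the first. psmb9 had 1.05, 1.26 and 1.98 FPKM in summer, against 0.28, 0.56 and 1.14 FPKM in winter, and only December 2015 among the winter dates reached the summer range. It rose by 0.58 ± 0.18 (limma adjusted p = 0.00925). 1 library, December 2016 replicate 2, is listed at 0 for psmb9. The winter mean of psmb9, 0.62 FPKM, lay under the filter of 1 FPKM, which it passed only through other dates.

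The neighbouring copy psmb9-like had 0.84, 1.48 and 2.44 FPKM in summer, against 0.24, 0.73 and 1.62 FPKM in winter. Its difference of 0.48 ± 0.21 did not pass (limma adjusted p = 0.0536). It passed in 12 of the 50 fits that left out 1 library, with adjusted p between 0.0253 and 0.0495, from July 2016 only (0.71, adjusted p = 0.0251) and with February 2016 left out (0.59, adjusted p = 0.0203). In the annual curve it did pass (adjusted p = 0.028), but not without August 2016 replicate 2 (0.0751), without July 2017 replicate 2 (0.0741) or with quantile normalization (0.0543). psmb9 and psmb9-like lie side by side in the RefSeq gene order of assembly ASM223467v1, between abcb3 and psmb8, in the region of the MHC class I genes orla-uaa and orla-uba. Reads shared between these copies may have been split by the authors' counting, so each copy's value is uncertain.

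LOC111948194, annotated as beta type-7-like, lies between psmb9-like and psmb8 in that order. Its mean of 0.87 FPKM left it outside the filter and untested. LOC101158678, an annotated psmb7 copy, lay inside it at 1.23 FPKM, and psmb9 at 1.46. LOC101158678 had 0.72, 1.24 and 2.22 FPKM in summer, against 0.42, 0.59 and 1.32 FPKM in winter, so its seasons overlapped. It rose by 0.39 ± 0.16 (limma adjusted p = 0.0402), unlike psmb7 itself. This call was lost in 13 of the 50 fits that left out 1 library, with adjusted p between 0.0503 and 0.0931, and with quantile normalization (0.167). The difference was 0.77 in the second year and 0.00 in the first. Both genes annotated as beta type-11, in mammals a subunit of thymic epithelium, were at or near 0. The last of the 4 below the filter, psmc3ip, is a PSMC3-interacting protein at 0.44 FPKM.

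**Figure D2:**
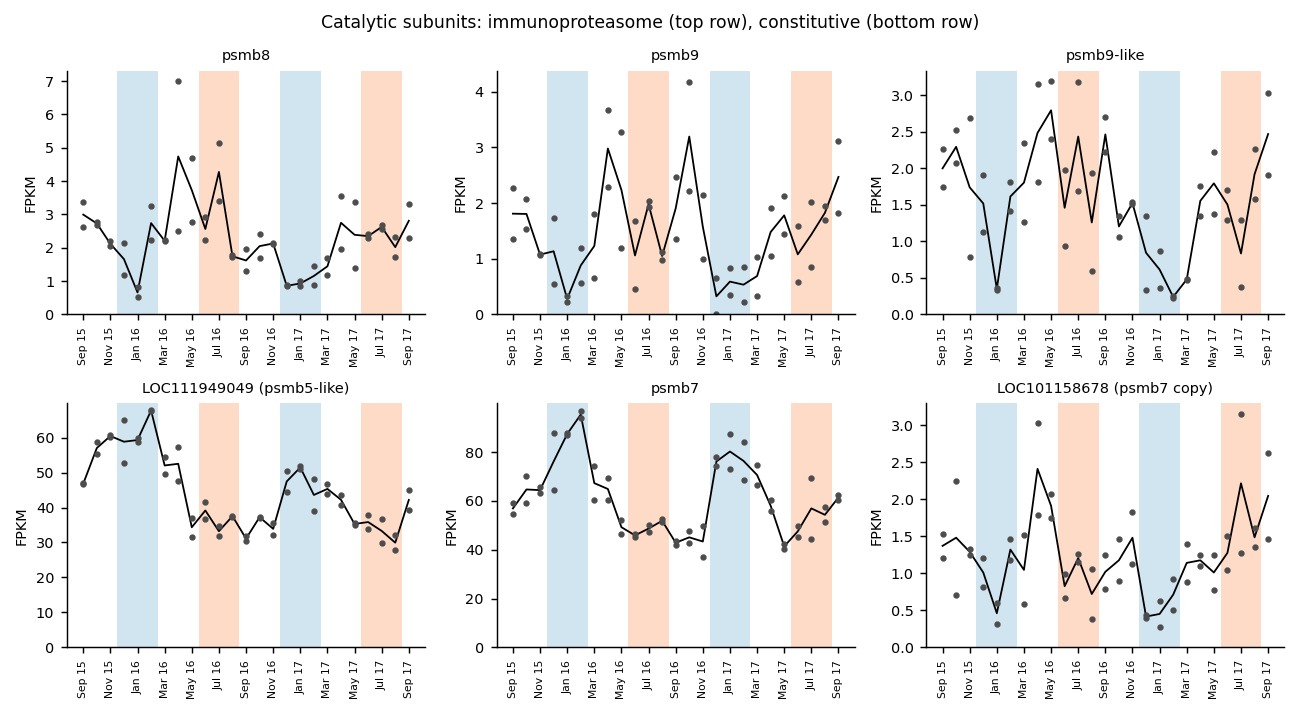
FPKM of the 3 immunoproteasome genes (top) and 3 genes annotated as standard catalytic subunits (bottom) on each date, with both libraries as points and their mean as a line, over summer (orange) and winter (blue) bands. psmb8 had its highest date mean, 4.74 FPKM, in April 2016, from libraries as far apart as 2.49 and 6.99 FPKM. psmb7 and LOC111949049 peaked at 95.4 and 67.8 FPKM in February 2016.

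Immunoproteasome and standard subunits were set against each other as differences of log2(FPKM + 1) per date, tested by an exact two-sided permutation test over dates for 3 ratios. This test, like the limma fits, treats dates as independent of each other, although neighbouring months of a season may share conditions. psmb8 relative to LOC111949049 averaged -3.35 ± 0.36 in summer and -4.63 ± 0.34 in winter (SD, n = 6 dates each). The difference was 1.28, with an exact permutation p = 0.00216, the smallest this design can give, and 0.00325 after adjustment over the 3 ratios. No winter date reached the lowest of the 6 summer dates. psmb9 relative to psmb7 differed by 1.25 (exact permutation p = 0.00216, adjusted 0.00325), again with all 6 summer dates above. psmb9-like relative to psmb7 differed by 1.16 (exact permutation p = 0.00433, adjusted 0.00433), with 5 of 6 summer dates above. psmb7 stands in for psmb6 here, so only the first ratio pairs a subunit with the one it replaces in mammals. Both ratios to psmb7 were chosen after seeing the data, so their p-values do not come from planned tests. psmb9 and psmb9-like also averaged under the filter of 1 FPKM in winter and passed it only through other dates. This favours higher ratios in summer. Ratios of other gene pairs were not computed, so the share of pairs that differ as much is not known. Of the summed FPKM of psmb8 and LOC111949049, psmb8 made up 6.98 ± 2.38% in summer and 2.32 ± 0.983% in winter (SD, n = 6 dates each). Over all dates this share ran between 1.1% and 11.4%.

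**Figure D3:**
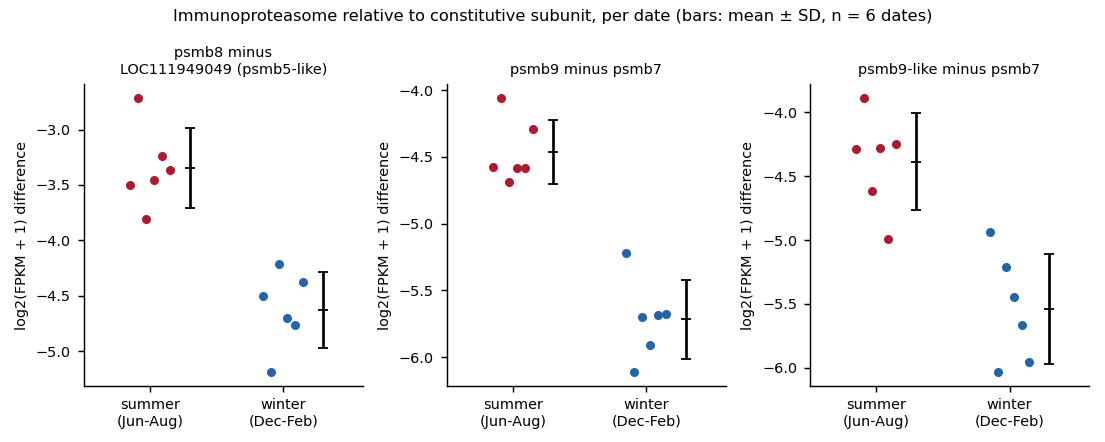
Difference of log2(FPKM + 1) between an immunoproteasome gene and a standard catalytic subunit, 1 point per date, summer left of winter, with mean ± SD (n = 6 dates each). Summer means lie higher by 1.28, 1.25 and 1.16, and in the third panel 1 of the 6 summer dates falls within the winter range.

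Direction also went with expression level. Of the 6 members with a mean under 5 FPKM (psmb8, psmb9, psmb9-like, LOC101158678, LOC101155046 and psmg4), 5 rose and psmb9-like did not pass, while 29.8% of all genes with a mean of 1 to 5 FPKM rose and 17.8% fell. The winter means of psmb9 (0.62 FPKM), psmb9-like (0.86 FPKM) and LOC101158678 (0.73 FPKM) lay under the filter of 1 FPKM. Their summer means (1.405, 1.57 and 1.29 FPKM) lay above it. These genes therefore passed the filter only through dates outside winter, which favours a rise in summer. Of the 43 members at 5 FPKM or above, 25 fell and psme3 rose. In the low members the libraries of a date differed more, by a median of 0.30 (psmb8) to 0.55 (psmb9) on the log2 scale, against 0.14 for psmb7. The part of expression level in the contrast was not tested.

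Genes of interferon response and antigen presentation were more often higher than lower in summer. Among 17 tested genes of this list, 9 were called higher in summer and 2 lower, and 6 did not pass, against 31.0% higher and 23.5% lower of all genes. Among the 9, mx averaged 0.48 FPKM in winter and 2.065 in summer, and an mx copy 0.86 and 3.15 FPKM. Both passed the filter of 1 FPKM only through dates outside winter, which favours a rise. The median difference was 0.41 over the list and 0.06 over all genes. irf3, an interferon-inducing transcription factor, was at 2.95 ± 0.386 FPKM in summer and 1.08 ± 0.322 FPKM in winter (0.92 ± 0.17, limma adjusted p = 6.67e-05). tap1, a subunit of the peptide transporter for MHC class I, rose by 0.83 ± 0.17 (limma adjusted p = 0.000181). b2m, the shared light chain of MHC class I, fell to 51.9 ± 5.23 FPKM in summer, against 101 ± 7.35 FPKM in winter (-0.96 ± 0.12, limma adjusted p = 8.64e-07). With b2m as its most abundant gene, the list summed to between 113 and 139 FPKM in summer and between 153 and 173 FPKM in winter.

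Markers of immune cells that could bring immunoproteasome RNA into the block were counted in the same way. Of 14 microglia and macrophage genes tested, 3 rose, 5 fell and 6 did not pass (all genes: 31.0% rose, 23.5% fell), and the list summed to between 405 and 477 FPKM in summer and between 698 and 1042 FPKM in winter. apoeb, the most abundant gene of this list and thus the largest part of its sum, fell by 1.68 on the log2 scale. It was at 192 ± 33.6 FPKM in summer and 619 ± 115 FPKM in winter. cd74, the next most abundant, was at 143 ± 37.3 FPKM in summer and 105 ± 43.3 FPKM in winter and did not pass. mpeg1-like fell by 0.93, p2ry12 fell by 0.91, and aif1 rose by 0.93. T and NK cell markers other than cd4 were low, with lck at 0.23 ± 0.087 FPKM in summer and 0.14 ± 0.10 FPKM in winter. Only 1 of 8 found was tested, cd4, which fell by 0.60. Of those below the filter and untested, trac was at 1.03 ± 0.378 FPKM in summer and 0.47 ± 0.275 FPKM in winter. il7r was at 0.91 ± 0.488 FPKM in summer and 0.34 ± 0.082 FPKM in winter. zap70 was at 0.29 ± 0.137 FPKM in summer and 0.11 ± 0.096 FPKM in winter, and cd247 at 0.44 ± 0.097 and 0.33 ± 0.078 FPKM. The other way went cd3g, at 0.19 ± 0.433 FPKM in summer and 0.22 ± 0.261 FPKM in winter. So did a cd247 copy, at 0.21 ± 0.098 FPKM in summer and 0.23 ± 0.049 FPKM in winter. With cd4 as its most abundant member (13.7 ± 2.29 FPKM in summer and 21.9 ± 6.72 FPKM in winter), the list summed to between 14.0 and 20.0 FPKM in summer and between 14.7 and 32.2 FPKM in winter. This sum therefore mostly follows cd4, and which cells held cd4 RNA was not tested. Of 3 B cell genes 1 was tested, cd79a, which rose by 0.51, and the list summed to between 1.94 and 3.58 FPKM in summer and between 0.95 and 2.28 FPKM in winter. cd79a averaged 1.47 FPKM in summer and 0.73 FPKM in winter. spi1, 1 of the 3 microglia and macrophage genes that rose, averaged 1.47 and 0.92 FPKM. Both passed the filter of 1 FPKM only through dates outside winter, which favours a rise. Of 3 granulocyte genes 2 were tested and neither passed, and lyz was listed at 0 in every summer library. Their part in the immunoproteasome result was not tested.

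Marker lists of other cell types are read against the 31.0% of all genes tested that rose and the 23.5% that fell. Of 7 neuron markers 5 rose and 2 did not pass, of 9 oligodendrocyte markers 4 rose and 1 fell, of 8 endothelial markers 4 rose and 1 fell, and of 4 erythrocyte markers 3 rose. Of 8 radial glia markers 1 fell and 7 did not pass, and of 5 proliferation genes 3 rose. Among the genes that rose, the oligodendrocyte marker olig1 averaged 0.61 FPKM in winter and 4.71 in summer. The proliferation genes top2a (0.215 and 1.47 FPKM) and cdk1 (0.99 and 3.76 FPKM) also averaged under the filter of 1 FPKM in winter. These genes passed the filter only through other dates, which favours a rise. Of 7 pituitary genes 3 rose, led by lhb at 3.68, and of 6 hypothalamic genes 2 rose and 2 fell. Summed FPKM of the neuron list was between 838 and 1155 in summer and between 796 and 975 in winter. Their part in the fall of the core genes was not tested.

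Among the 8 alpha subunits, which form the outer rings of the core, 3 fell (37.5%), 1 rose (12.5%) and 4 did not pass, where 23.5% of all genes fell and 31.0% rose. psma1 had a lowest, median and highest date of 24.7, 31.9 and 33.8 FPKM in summer, against 40.2, 43.6 and 51.3 FPKM in winter. It fell without overlap by 0.50 ± 0.11 on the log2 scale (limma adjusted p = 0.000608). psma3 averaged 47.4 ± 3.56 FPKM in summer and 62.3 ± 7.47 FPKM in winter, a difference of -0.39 ± 0.12. psma2 averaged 48.5 ± 4.60 FPKM in summer and 62.1 ± 6.92 FPKM in winter (-0.35 ± 0.13), and it missed the threshold with February 2016 left out (adjusted p = 0.0611). The 4 that did not pass, psma4, psma5, psma8 and LOC101162259 (annotated psma6), had differences between -0.30 and -0.07. LOC101155046, a second annotated psma6 copy, rose to 1.79 ± 0.250 FPKM in summer, against 1.04 ± 0.455 FPKM in winter (0.46 ± 0.15, limma adjusted p = 0.0129). Reads shared between the psma6 copies leave the level of the minor copy uncertain.

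Of the 4 structural beta subunits, psmb1, psmb2 and psmb3 fell (75.0%, against 23.5% of all genes) and psmb4 did not pass. psmb3 had 32.5, 38.2 and 39.9 FPKM as its lowest, median and highest summer date, against 44.0, 46.4 and 55.2 FPKM in winter. Its seasons did not overlap and it fell by 0.37 ± 0.11 (limma adjusted p = 0.00877). psmb2 fell by 0.37 ± 0.12 and psmb1 by 0.40 ± 0.15, but psmb1 missed the threshold with February 2016 left out (adjusted p = 0.0855). psmb4 was at 53.6 ± 3.35 FPKM in summer and 64.8 ± 12.2 FPKM in winter (limma adjusted p = 0.13). From July 2016 only, none of these 4 passed.

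Of the 6 ATPases of the regulatory particle, which unfold the substrate, 4 fell (66.7%, against 23.5% of all genes) and 2 did not pass. psmc4 had 27.1, 29.4 and 32.0 FPKM as its lowest, median and highest summer date, against 41.4, 47.4 and 50.9 FPKM in winter, with no overlap. Its difference was -0.64 ± 0.10 (limma adjusted p = 8.28e-06), -0.62 in the second year and -0.66 in the first. psmc1 was at 36.4 ± 3.12 FPKM in summer and 46.0 ± 2.52 FPKM in winter (-0.33 ± 0.07), and psmc2 differed by -0.27 ± 0.09. psmc3 fell by 0.26 ± 0.10 (limma adjusted p = 0.034), a call lost without November 2016 replicate 2 (0.0564), without July 2017 replicate 1 (0.0728) or with February 2016 left out (0.0809). psmc5 averaged 39.5 ± 3.06 FPKM in summer and 36.4 ± 8.17 FPKM in winter and did not pass (limma adjusted p = 0.388).

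Of the 13 other regulatory particle genes, 7 fell (53.8%, against 23.5% of all genes) and 6 did not pass. psmd8, a lid subunit, was at 26.0 ± 2.45 FPKM in summer and 39.6 ± 2.95 FPKM in winter, a difference of -0.59 ± 0.10 (limma adjusted p = 4.51e-05). psmd14, the deubiquitinase that removes ubiquitin chains before degradation, had 25.6, 28.9 and 30.9 FPKM as its lowest, median and highest summer date, against 38.7, 42.5 and 50.4 FPKM in winter. It fell by 0.58 ± 0.13 (limma adjusted p = 0.000421). psmd1, a large scaffold subunit, differed by -0.45 ± 0.10, and psmd3 by -0.37 ± 0.11. Every summer date lay below every winter date for psmd8, psmd14 and psmd1. psmd12, a lid subunit, averaged 42.3 ± 2.87 FPKM in summer and 36.7 ± 5.91 FPKM in winter, and its difference of 0.21 ± 0.11 did not pass over all dates (limma adjusted p = 0.117). It passed as a rise with February 2016 left out (adjusted p = 0.0333) and from July 2016 only (adjusted p = 0.0217). The ubiquitin receptor gene psmd4 is annotated in 2 copies. LOC101157953 fell by 0.31 ± 0.12 (limma adjusted p = 0.0302), but not without December 2016 replicate 2 (0.0866), without January 2017 replicate 2 (0.0513) or with February 2016 left out (0.0572). LOC101173089 did not pass (0.11 ± 0.12).

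Of the 4 genes for activators that can replace the regulatory particle, psme1 fell (25.0%, against 23.5% of all genes), psme3 rose (25.0%, against 31.0%), and psme2 and psme4 did not pass. psme1 and psme2 encode partner subunits of an interferon-inducible ring, the mammalian PA28 alpha and beta. psme1 had a lowest, median and highest date of 11.5, 13.3 and 15.4 FPKM in summer, against 25.6, 33.6 and 46.9 FPKM in winter, so that the highest summer date lay below the lowest winter date. It fell by 1.28 ± 0.20 (limma adjusted p = 1.66e-05), the largest change among the 49 members. psme2 had 17.5, 22.6 and 26.8 FPKM in summer, against 13.3, 18.4 and 24.4 FPKM in winter, with overlap. Its difference of 0.29 ± 0.15 did not pass over all dates (limma adjusted p = 0.107) and did pass from July 2016 only (0.54, adjusted p = 0.00991). On the log2 scale psme1 minus psme2 lay between -1.03 and -0.18 on summer dates and between 0.74 and 1.09 on winter dates.

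psme3, whose mammalian counterpart is a nuclear activator, had 17.9, 20.9 and 24.8 FPKM in summer, against 12.5, 14.1 and 17.8 FPKM in winter. It rose without overlap by 0.46 ± 0.12 (limma adjusted p = 0.00207). psme4, whose counterpart PA200 acts on histones, was at 12.4 ± 0.896 FPKM in summer and 11.3 ± 0.399 FPKM in winter, and although no date overlapped its difference of 0.13 ± 0.06 did not pass (limma adjusted p = 0.0801). psmf1, the counterpart of the inhibitor PI31, had 16.6, 19.0 and 22.1 FPKM in summer, against 31.2, 35.2 and 41.9 FPKM in winter. It fell by 0.85 ± 0.10 (limma adjusted p = 7.85e-07), by 0.70 in the second year and by 1.01 in the first.

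**Figure D4:**
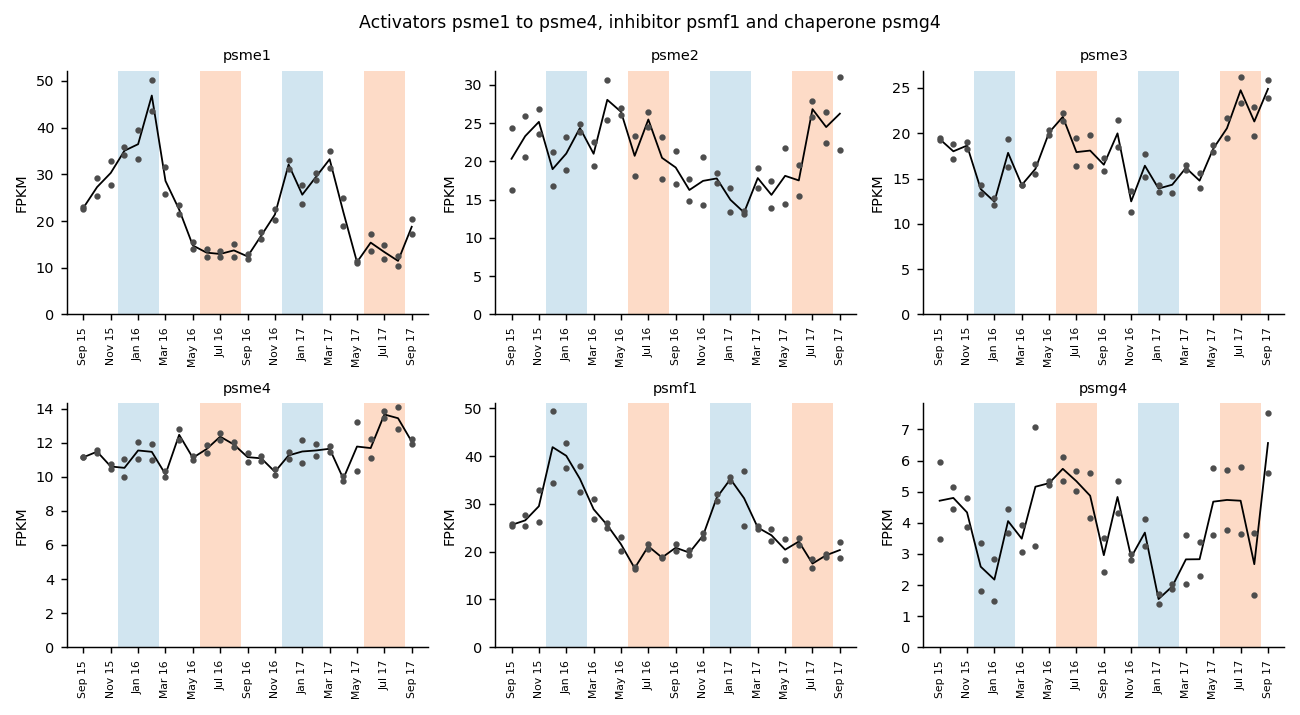
FPKM of the 4 activator genes, the inhibitor psmf1 and the assembly chaperone psmg4 on each date, with both libraries as points and their mean as a line, over summer (orange) and winter (blue) bands. psme1 lay between 11.5 and 15.4 FPKM on summer dates and between 25.6 and 46.9 FPKM on winter dates, while psme3 and psmg4 were higher in summer.

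Of 7 assembly factor genes, 4 fell (57.1%), 1 rose (14.3%) and 2 did not pass, where 23.5% of all genes fell and 31.0% rose. psmd9 and psmd5 encode chaperones of the ATPase ring and are not part of the finished particle. psmd9 had 17.4, 18.2 and 21.5 FPKM in summer, against 28.8, 32.8 and 38.8 FPKM in winter. It fell by 0.80 ± 0.11 without overlap (limma adjusted p = 2.04e-06), and psmd5 fell by 0.55 ± 0.09. The psmg genes encode chaperones of the alpha ring, which in mammals work as the pairs PSMG1 with PSMG2 and PSMG3 with PSMG4. Within the second pair psmg3 fell to 11.5 ± 1.31 FPKM in summer, against 14.9 ± 1.12 FPKM in winter (-0.34 ± 0.11, limma adjusted p = 0.00958). psmg4 rose to 4.68 ± 1.06 FPKM in summer, against 2.67 ± 0.997 FPKM in winter (0.64 ± 0.19, limma adjusted p = 0.00566). In the first pair psmg1 fell by 0.33 ± 0.09 and psmg2 did not pass (-0.03 ± 0.11).

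Genes that act with the proteasome were mixed, with 5 of 29 higher in summer, 9 lower and 15 not passing, against 31.0% higher and 23.5% lower of all genes. The median difference was -0.02 over the list and 0.06 over all genes. nploc4, a cofactor of the VCP unfoldase, fell by 1.04 ± 0.13 (limma adjusted p = 1.11e-06). uba1, the main ubiquitin-activating enzyme, was at 78.8 ± 3.17 FPKM in summer and 118 ± 7.57 FPKM in winter (-0.57 ± 0.09, limma adjusted p = 8.12e-06). txnl1, a thioredoxin bound to the regulatory particle, fell by 0.56 ± 0.10 (limma adjusted p = 8.52e-05). nfe2l1, named after its values were seen, encodes a transcription factor that in mammals raises proteasome genes when the proteasome is inhibited. It rose to 24.3 ± 6.94 FPKM in summer, against 16.5 ± 1.31 FPKM in winter (0.50 ± 0.12, limma adjusted p = 0.000999). An nfe2l1-like gene rose as well (0.55 ± 0.14, limma adjusted p = 0.00246). A further nfe2l1 copy had the opposite sign and did not pass (-0.20 ± 0.16, limma adjusted p = 0.293).

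Over the whole calendar, 24 of 49 members followed an annual curve (limma F test, adjusted p under 0.05), against 53.4% of all genes tested. The fitted peak was in January for 18 of these members, in July for 2 and in August for 4, while 29.3% of all genes with an annual curve peaked in January, 32.9% in July and 22.1% in August. The range of the curve on the log2 scale was widest for psme1 (1.43, adjusted p = 8.97e-08), followed by psmf1 (0.87, adjusted p = 2.5e-07) and psmd9 (0.85, adjusted p = 5.33e-08). The July and August group held psmb8, psmb9, psmb9-like, LOC101155046, psme3 and psmg4. The call of LOC101155046 was lost in 7 of the 50 fits without 1 library and that of psmg3 in 22. The lowest date was November 2016 in 13 members and May 2017 in another 13, so low values were not confined to summer. The share of all genes with their lowest date there is not given here, so this cannot be read as particular to the members. In 14 members no comparison gave a call.

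**Figure D5:**
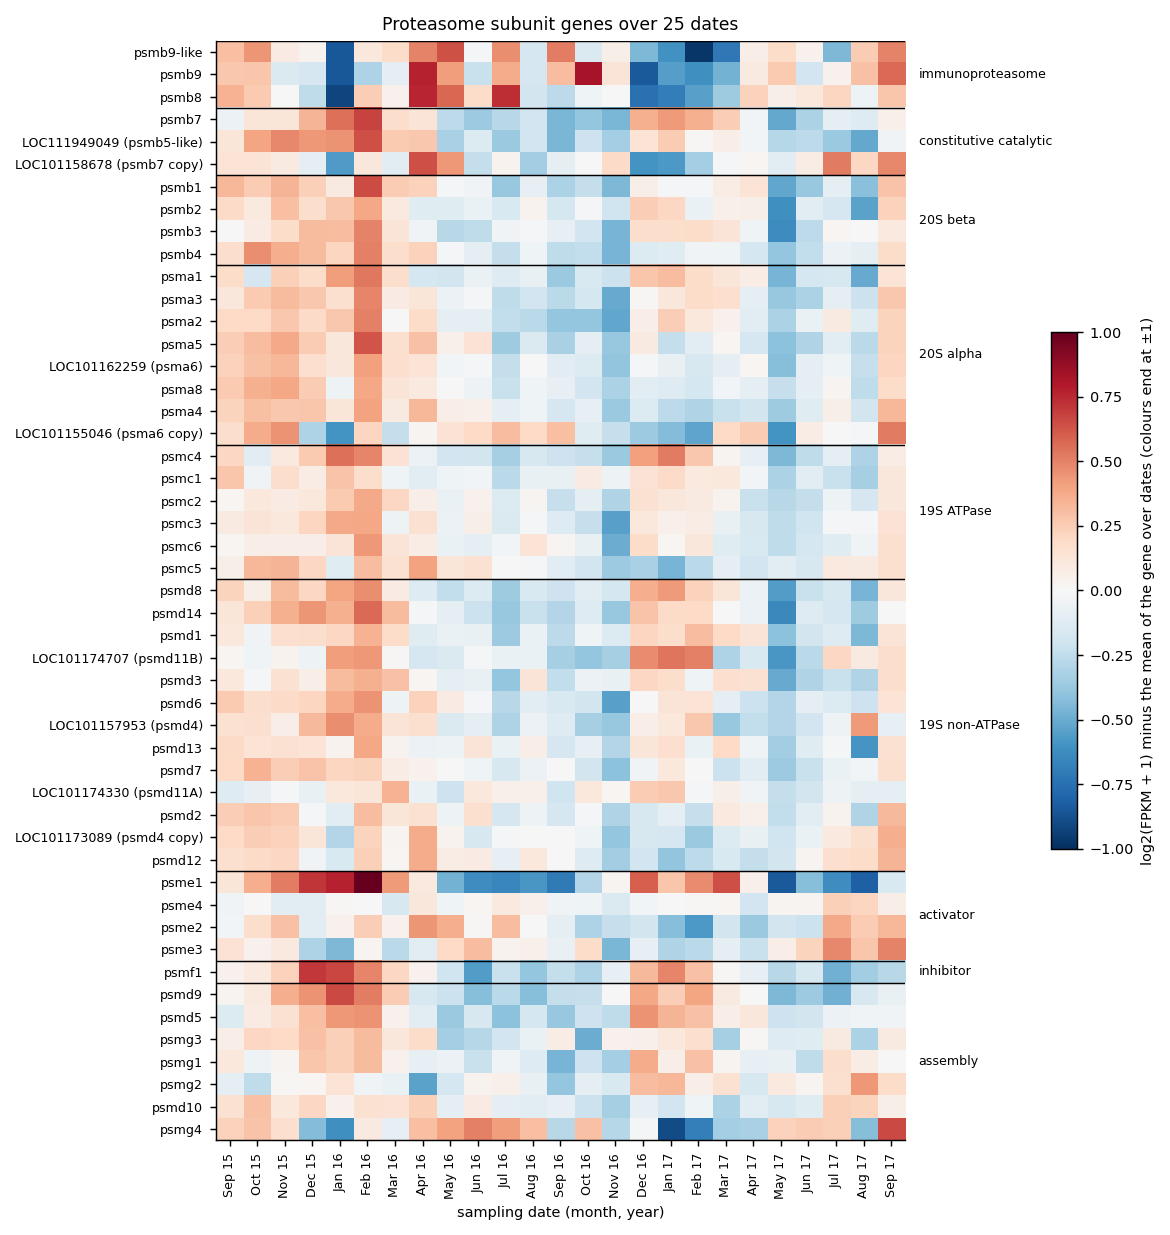
Each of the 49 genes (rows, by role) on the 25 dates (columns), coloured by log2(FPKM + 1) minus the gene's mean over dates. Most core rows are red in the first winter with a maximum in February 2016 and blue in November 2016 and May 2017, and the immunoproteasome rows are blue in January of both years.

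At like day length on either side of midsummer, falling days (August to October) were set against rising days (February to April). 5 of 49 members fell, psmb7, psmd1, psmd9, psme1 and psmf1, against 9.06% of all genes tested, and psme3 rose, against 12.9%, so that 6 changed, against 22.0%. psme1 averaged 17.6 ± 5.81 FPKM on the 7 dates of falling days and 30.4 ± 9.14 FPKM on the 6 dates of rising days (SD). The difference was -0.77 ± 0.18 (limma adjusted p = 0.00655). psme3 averaged 19.7 ± 2.75 FPKM on falling days and 15.6 ± 1.39 FPKM on rising days (0.32 ± 0.10, limma adjusted p = 0.0242). August and February also belong to summer and winter. With February 2016 left out, 1 member fell and 1 rose, and psmb7 (adjusted p = 0.0995), psmd1 (0.115), psmd9 (0.102) and psmf1 (0.0941) missed the threshold. Without September 2015 replicate 2, 3 fell. psmf1 missed the threshold without February 2017 replicate 1 (0.0531), and psmd1 did so in 5 of 50 such fits. For the fits that left out a date or a library, the shares of all genes called are not given here.

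In the second year 2 members fell, psma4 and psmc5, against 8.97% of all genes tested, and psmg2 rose, against 3.01% (12.0% changed in either direction). psmc5 averaged 35.0 ± 4.86 FPKM in the second year and 43.2 ± 5.47 FPKM in the first (SD over 12 months each), a difference of -0.30 ± 0.08 (limma adjusted p = 0.0312). psma4 averaged 41.7 ± 6.27 FPKM in the second year and 51.0 ± 6.56 FPKM in the first (-0.29 ± 0.09, limma adjusted p = 0.0474), and the call was lost in 18 of 50 fits without 1 library. psmg2 averaged 7.75 ± 1.13 FPKM in the second year and 6.49 ± 0.967 FPKM in the first (0.22 ± 0.06, limma adjusted p = 0.0316), a call lost in 5 such fits. With February 2016 left out no member passed, with adjusted p = 0.107 for psma4, 0.0734 for psmc5 and 0.0502 for psmg2. At any size, 44 of 49 members were lower in the second year, with a median difference of -0.145 over the members and -0.048 over all genes tested. The second winter was lower than the first in 44 members too, with a median difference of -0.22 over the members and -0.08 over all genes tested. Shares of all genes are not given here for these counts or for the fit without February 2016. The counts therefore cannot show whether members differed from other genes.

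A wave of 6 months on top of the annual curve passed in 4 members (LOC101174707, psmb9, psmb3 and psmg2), against 8.39% of all genes tested. LOC101174707, annotated as psmd11B, had a range of 0.54 on the log2 scale (limma adjusted p = 0.0122), with its highest date, 25.6 FPKM, in January 2017. psmb9 had a range of 0.72 (limma adjusted p = 0.0134), with its highest date, 3.20 FPKM, in October 2016. psmb3 (limma adjusted p = 0.0281) missed the threshold with February 2016 left out (0.0536), and psmg2 (0.0387) missed it in 11 of 50 fits without 1 library.

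Whether the difference between summer and winter itself differed between years was tested by an interaction term in limma. No member and 0% of all genes passed. At an unadjusted p under 0.05 there were 5 members (LOC101158678, LOC101157953, psmc5, psmd10 and psma4) and 14.4% of all genes. LOC101158678 came first, with 0.77 in the second year and 0.00 in the first (limma adjusted p = 0.249). psmc5 differed by 0.36 in the second year and by -0.08 in the first (limma adjusted p = 0.321).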

How the data were processed

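Per the labels' protocols, DNase-treated RNA was selected on poly-T beads and sequenced strand-specifically from both ends, 100 bases each. The authors deposited FPKM per gene and library. Bowtie2 2.2.5 and RSEM 1.2.12 stand in the submitters' processing notes. The genome build is not given in the sources used here, and neither coordinates nor sequences are printed. Read counts were not used here, so depth is unknown and no counting interval is given.

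From the FPKM, log2(FPKM + 1) was computed, the libraries of a date were averaged, and 16493 genes, those averaging 1 FPKM or more, went into limma 3.58.1 (R 4.3.3; trended variance, Benjamini-Hochberg adjustment). The fits were also run on simulated data with independent noise and changes in a small part of the genes, a result not given here. In the real data many genes are seasonal and a date may carry shared effects, so that run does not test the calls. Seasonal contrasts used means of 4 blocks of 3 months over 25 dates, and the comparison of years used the calendar month as a block. Tables and figures were made with Python 3.11.15 and matplotlib 3.10.9. RefSeq's gene table (assembly ASM223467v1) held all 49 identifiers and was used for names and gene order. Fold changes understate those of low genes because of the pseudocount of 1.

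The members, gene lists and tests were chosen with earlier results of these data known. Named are the catalytic and activator genes, and in each other role up to 4 genes with the smallest adjusted p for the annual curve and both ends of the summer minus winter difference. Added to these are up to 3 genes with the smallest adjusted p in each other comparison and list. The ratios of psmb9 and psmb9-like to psmb7, and the fits without February 2016, were chosen after seeing the data, as were genes named for a small count or a lost call. Alternatives covered the pseudocount, the filter, scaling, libraries as separate samples, a replicate block, the months of a season, July 2016, and each library left out.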

Additional observations from a re-analysis of the deposited data

Results flagged for a closer look

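In 10 of 98 groups of 6 dates (10.2%), 1 date lay far from the other 5 by Dixon's criterion, where chance flags about 1 in 20 groups. 4 of the 10 were February 2016. On that date psmb1 was at 69.8 FPKM (other winter dates 43.6 to 52.4), psmc6 at 37.5 (27.9 to 31.4), psmd2 at 42.1 (28.8 to 33.5) and LOC101155046 at 1.92 (0.67 to 1.09). In December 2015 LOC101174707 was low at 16.9 FPKM (other winter dates 23.5 to 25.6) and psme4 at 10.5 (11.3 to 11.5). In August 2017 psma1 was low at 24.7 FPKM (other summer dates 31.2 to 33.8) and psmg4 at 2.67 (4.71 to 5.74), while LOC101157953 was high at 30.5 (17.9 to 21.7). psmb8 was high in July 2016, at 4.28 FPKM (other summer dates 1.75 to 2.63).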

How the results depend on the processing

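No result changed direction among those that passed, under any alternative run. The 3 ratios of immunoproteasome to standard subunits passed in every alternative, and between 1.21 and 1.35, 1.15 and 1.36, and 1.08 and 1.23 when 1 library was left out. For both ratios to psmb7, the filter and a choice made after seeing the data favour this direction. Counts of members that rose in summer became 1 with a filter of 5 FPKM, since 5 of the 6 lie below it, and 10 with libraries as separate samples, 10 from July 2016 only, 10 with a step term at July 2016. Those that fell became 13 from July 2016 only, 16 for July-September against January-March, 28 with quantile normalization (5 rose) and 31 with median ratio scaling (6 rose), against 25 as reported. These scalings turned 5107 higher and 3883 lower of all genes into 4441 and 4530, and 4534 and 4587.

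Falling against rising days gave 8 lower members with quantile normalization and 8 with median ratio scaling, 11 lower and 2 higher with libraries as separate samples, and 1 lower with February 2016 left out. Second against first year gave 1 lower without the filter, 1 with median ratio scaling, 27 with libraries as separate samples and, with February 2016 left out, 0 higher and 0 lower. With libraries as separate samples 12 members had the 6-month wave and 4 a season by year difference. Leaving out 1 library gave 22 to 26 members with an annual curve, 5 to 7 higher and 24 to 27 lower in summer, 1 higher and 3 to 6 lower on falling days, 0 to 1 higher and 1 to 5 lower in the second year, 3 to 5 with a 6-month wave, and 0 for season by year. The shares of all genes called in these fits are not given here, so the counts cannot show whether members differed from other genes. Depth is unknown, so values under about 1 FPKM carry an error that could not be given.

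Replicate numbers carried no effect common to the dates. Deviations of same-numbered libraries correlated between -0.114 and 0.138 over 276 pairs of dates (median 0.01), with 8 pairs over 0.1. How the libraries were numbered cannot be read from this. With the replicate block, and libraries as separate samples, 37 members had an annual curve, 10 rose in summer, 2 rose and 14 fell on falling days, 25 fell in the second year, 13 had a 6-month wave and 4 a season by year difference. Libraries of a date may share that date's conditions, so as separate samples they may not be independent, and the date was kept as the unit. All genes were not counted beside the members in these fits, so a larger count of members cannot be read as particular to them. The cause of these changes was not tested.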
